A study of Homo sapiens with 28 samples.

Results

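The 10 genes described here encode carriers that move amino acids across the plasma membrane: the heavy chain SLC3A2 and its light chains SLC7A5 and SLC7A11, the cationic carrier SLC7A1, the sodium-dependent neutral carriers SLC1A5 and SLC1A4, the sodium-coupled carriers SLC38A1 and SLC38A2, the glycine carrier SLC6A9 and the sodium-independent carrier SLC43A1. They were chosen by symbol, with no measured value in the rule, out of 63139 genes in the count table. All 10 were among the 18849 genes with enough counts to be tested, and no library held fewer than 515 counts for any of them.

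Poly(A) RNA was sequenced from HepG2, an established human line derived from a liver tumour and widely used as a stand-in for hepatocytes. All 28 libraries (7 groups of 4) came from cells starved of serum for 24 h before a 24 h exposure. CdCl2, a cadmium salt, was given at 0.5 µM with a water control (H2O). TCDD, the dioxin that activates the aryl hydrocarbon receptor, was given at 100 nM, PFOS, a perfluorinated surfactant, at 10 µM, BPA (bisphenol A, a plastic monomer) at 75 µM and TBTCl (tributyltin chloride, an organotin biocide) at 0.1 µM. These last 4 groups share 1 DMSO control, with at most 0.1% DMSO in the medium. Each compound was given at a single dose and in a single cell line, and the labels describe 4 independent experiments. The series text records that the labels of the TCDD and PFOS groups were exchanged in an update, and the updated labels are used.

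Amino acid carriers set how fast a cell can take up the building blocks of protein, glutathione and nucleotides. SLC3A2 is a glycoprotein without transport activity of its own. It brings the light chains to the membrane. Its pair with SLC7A5 (LAT1) exchanges leucine and other large neutral amino acids. Its pair with SLC7A11 (xCT) imports cystine for glutathione synthesis in exchange for glutamate. Many carrier genes are induced when amino acids run short or the endoplasmic reticulum is stressed. Kinases of the integrated stress response then raise the translation of ATF4, a transcription factor that binds amino acid response elements, and SLC7A11 is also a known target of the oxidant-responsive factor NRF2. In hepatocytes amino acid uptake feeds secreted protein synthesis, ureagenesis and gluconeogenesis.

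In GRCh38 coordinates of GENCODE release 29, SLC7A5 spans chr16:87830023-87869488, SLC3A2 chr11:62856102-62888875, SLC7A11 chr4:138164097-138242349, SLC7A1 chr13:29509410-29595688 and SLC1A5 chr19:46774883-46788594. SLC1A4 spans chr2:64988477-65023865, SLC38A2 chr12:46358189-46372867, SLC38A1 chr12:46183063-46270017, SLC6A9 chr1:43991500-44031467 and SLC43A1 chr11:57484534-57515786. All are protein coding. SLC3A2 and SLC1A4 lie on the plus strand and the other 8 on the minus strand. SLC38A1 and SLC38A2 lie close together on chromosome 12.

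Start sites of 9 of the 10 genes matched a RefSeq promoter table (GRCh38.p14, 16 windows of 250 bases before to 50 bases after a start). SLC7A11 was not matched. Because several of these mRNAs changed with BPA or TCDD, the windows were searched on both strands for 3 textbook motifs: TGATGNAA, a core of the amino acid response element bound by ATF4, TGACNNNGC, the core of the antioxidant response element bound by NRF2, and GCGTG, the core of the xenobiotic response element bound by the aryl hydrocarbon receptor. TGATGNAA was present in 5 of the 16 windows, 1 each of SLC3A2, SLC7A1, SLC1A5, SLC1A4 and SLC38A1, and in 3.6% of all 35116 windows in the table. TGACNNNGC was present in 4 of the 16 windows (SLC7A5, SLC3A2, SLC7A1 and SLC1A5) and in 13.3% of all windows. GCGTG was present in 10 of the 16 windows and in 36.5% of all windows. The 10 windows came from 7 genes: SLC7A5, SLC3A2, SLC7A1, SLC1A5, SLC1A4, SLC38A1 and SLC43A1. No 2 matches overlapped in any of the 16 windows. These are matches of letters and show no binding. Several windows of 1 gene are alternative starts of that gene.

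Stretches from 200 bases before to 30 bases after a start are shown for 6 genes, 5'→3' on the gene's own strand, with matches to the 3 motifs in capitals. SLC7A5 and SLC3A2 are shown as the pair that rose with both TCDD and BPA, SLC7A1, SLC1A4 and SLC38A1 as genes with the ATF4 motif near the start, and SLC38A2 as the gene that was not called with BPA.
SLC7A5, chr16:87869478-87869707, minus strand: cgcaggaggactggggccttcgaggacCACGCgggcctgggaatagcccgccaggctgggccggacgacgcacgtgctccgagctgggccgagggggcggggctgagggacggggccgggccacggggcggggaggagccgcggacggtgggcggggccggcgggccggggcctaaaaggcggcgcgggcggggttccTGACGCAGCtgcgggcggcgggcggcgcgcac
SLC3A2, chr11:62881499-62881728, plus strand: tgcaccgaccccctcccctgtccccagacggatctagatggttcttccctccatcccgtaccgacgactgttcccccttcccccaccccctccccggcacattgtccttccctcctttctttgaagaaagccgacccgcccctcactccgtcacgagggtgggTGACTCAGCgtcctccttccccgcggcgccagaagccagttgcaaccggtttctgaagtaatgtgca
SLC7A1, chr13:29595659-29595888, minus strand: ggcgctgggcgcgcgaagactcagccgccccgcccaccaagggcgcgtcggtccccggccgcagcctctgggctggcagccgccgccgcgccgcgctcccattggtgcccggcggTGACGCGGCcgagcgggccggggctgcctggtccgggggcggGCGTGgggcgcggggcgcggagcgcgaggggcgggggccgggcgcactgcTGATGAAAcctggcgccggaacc
SLC1A4, chr2:64989199-64989428, plus strand: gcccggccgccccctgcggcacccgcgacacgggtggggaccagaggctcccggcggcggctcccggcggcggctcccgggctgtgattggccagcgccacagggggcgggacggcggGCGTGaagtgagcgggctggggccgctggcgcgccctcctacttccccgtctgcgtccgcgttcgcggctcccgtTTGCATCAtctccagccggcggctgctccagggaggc
SLC38A1, chr12:46266487-46266716, minus strand: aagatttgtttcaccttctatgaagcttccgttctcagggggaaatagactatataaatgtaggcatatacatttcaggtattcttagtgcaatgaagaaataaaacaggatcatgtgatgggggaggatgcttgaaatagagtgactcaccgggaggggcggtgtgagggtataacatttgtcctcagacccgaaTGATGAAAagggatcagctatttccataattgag
SLC38A2, chr12:46372744-46372973, minus strand: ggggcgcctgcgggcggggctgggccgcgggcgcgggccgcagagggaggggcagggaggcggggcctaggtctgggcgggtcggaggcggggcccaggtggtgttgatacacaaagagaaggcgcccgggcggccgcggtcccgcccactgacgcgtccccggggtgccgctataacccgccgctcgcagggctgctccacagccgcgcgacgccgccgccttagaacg

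SLC7A5 carries TGACGCAGC beginning 2 bases before the start and CACGC, which is GCGTG on the other strand, beginning 173 bases before it. SLC3A2 carries TGACTCAGC beginning 37 bases before this start, and its ATF4 motif, TTACATCA on the opposite strand, begins 37 bases after the start, past the stretch shown. The GCGTG matches of SLC3A2 lie in the windows of its other starts, which are not shown. The ATF4 motif of SLC7A1 is TGATGAAA beginning 7 bases after the start, that of SLC1A4 is TTGCATCA beginning 7 bases before it, and that of SLC38A1 is TGATGAAA beginning 4 bases before it. SLC38A2 and SLC6A9 held none of the 3 motifs in their windows, which says only that these letters are not there.

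The libraries held 28906900 to 66042414 counts in genes. Levels are TMM-scaled CPM (each library's counts scaled to a common total), on which 3 counts correspond to 0.0435 to 0.104 CPM, a floor that covers counting error only. CYP1A1, the textbook target of the aryl hydrocarbon receptor, was chosen as a label check after earlier results were known: it lay between 2841 and 6409.9 CPM in the TCDD libraries and between 1.5 and 16.1 CPM in the PFOS libraries. All 10 hepatocyte markers examined (ALB, AFP, APOA1, APOB, TTR, SERPINA1, HNF4A, FGB, TF and AHSG) were above 0 in every library. Differences were tested with edgeR's quasi-likelihood test over all 18849 genes, and a gene is called when its Benjamini-Hochberg adjusted p over those genes is under 0.05. Fold changes are on the log2 scale, with the standard error after the ± sign. The spread measured is that between libraries of 4 experiments in 1 cell line.

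In DMSO cells the 10 mRNAs covered a wide range once divided by exon length. SLC7A5, the LAT1 light chain, stood at 139 ± 33.9 CPM per kb of exon (SD, n = 4), the glutamine carrier SLC1A5 at 117 ± 20.8 CPM per kb and the system A carrier SLC38A2 at 107 ± 21.7 CPM per kb, and the libraries of neighbours in this order overlapped. The heavy chain SLC3A2 was lower than all 3 in every DMSO library, at 47.0 ± 8.52 CPM per kb. SLC43A1 followed at 25.5 ± 5.20, SLC7A1 at 17.7 ± 5.65, SLC38A1 at 15.4 ± 2.24 and SLC1A4 at 14.1 ± 2.70 CPM per kb, each overlapping its neighbour. The cystine carrier SLC7A11, at 6.25 ± 2.68 CPM per kb, and the glycine carrier SLC6A9, at 5.91 ± 2.10 CPM per kb, were the lowest and overlapped each other. With TCDD, SLC7A5 stood alone at the top, at 501 ± 72.2 CPM per kb, and SLC3A2 overlapped SLC1A5. With BPA, SLC7A5 at 313 ± 20.5 and SLC1A5 at 232 ± 7.71 CPM per kb no longer overlapped, and SLC3A2 at 157 ± 45.3 CPM per kb overlapped SLC38A2 at 116 ± 18.2 CPM per kb.

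**Figure D1:**
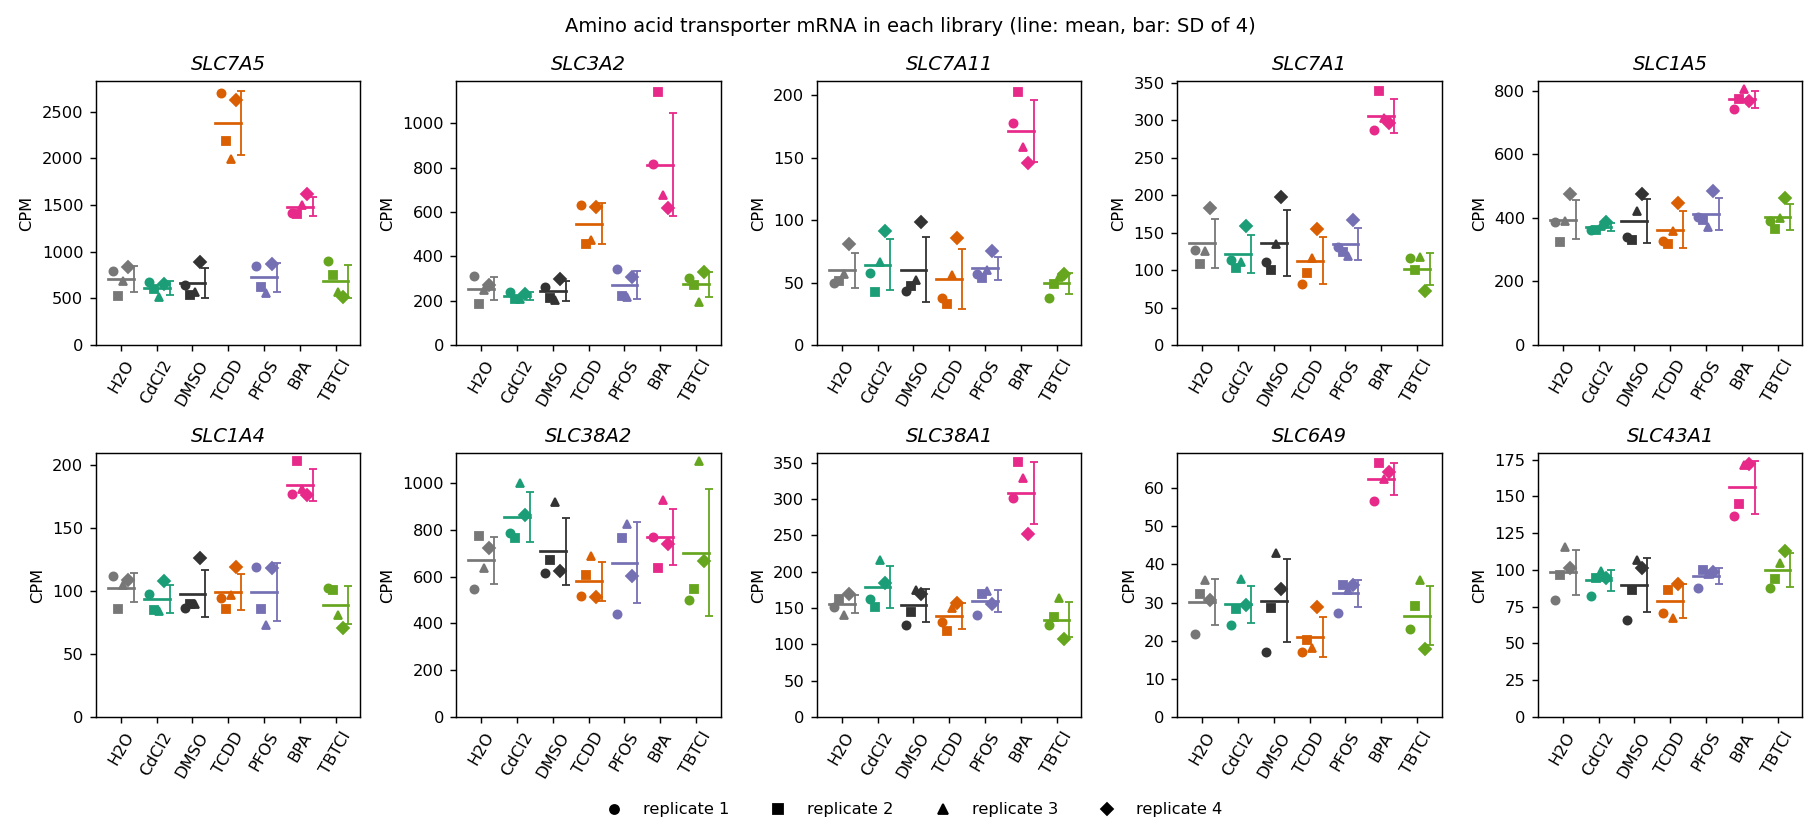
TMM-scaled CPM (y axis from 0, each panel on its own scale) of the 10 transporter mRNAs in the 28 libraries, by group on the x axis. Points are libraries with a shape per replicate number, lines are means and bars are SDs of 4. All 4 BPA points lie above all 4 DMSO points in 9 panels, and all 4 TCDD points lie above all DMSO points for SLC7A5 and SLC3A2.

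BPA raised 9 of the 10 transporter mRNAs, and none fell. Log2 fold changes of the 9 ran from 0.79 for SLC43A1 to 1.74 for SLC3A2, and for each of the 9 all BPA libraries were above all DMSO libraries. SLC38A2 alone was not called. Over all tested genes, 35.0% were called in this comparison, 17.3% as higher, and 20.1% had every BPA library above every DMSO library. The median log2 fold change was 1.02 over the 10 transporters and -0.02 over all tested genes. In bulk RNA, fewer cells of a type and less RNA per cell cannot be told apart.

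Cell type markers moved in the same libraries. The summed level of the 10 hepatocyte markers was 30254 to 48365 CPM with BPA and 42271 to 79593 CPM with DMSO. FGB, AFP and TF fell, HNF4A rose and the other 6 were not called, and the calls of TF and HNF4A were lost under some alternatives. The 14 markers of other cell types summed to 682 to 1506 CPM with BPA and 1884 to 2477 CPM with DMSO, most of it lysozyme (LYZ), which stood at 2142 ± 245 CPM in DMSO and 1145 ± 378 CPM in BPA. Among these 14 markers, PTPRC, COL1A2 and HBB were at 0 in all libraries of both groups, CD3E in all DMSO libraries and DCN in all BPA libraries. CD14 rose, PECAM1 and LYZ fell, 3 of the 6 tested markers were not called, and the part of either marker list in the transporter result was not tested.

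The heavy chain SLC3A2 had the largest rise of the 10. Its levels in DMSO libraries 1 to 4 were 259.7, 214, 202 and 298 CPM, and in BPA libraries 1 to 4 they were 817, 1143, 678 and 618 CPM. BPA library 2 had the highest SLC3A2 level of the series, and the lowest BPA library was above every library of the H2O, CdCl2, DMSO, PFOS and TBTCl groups. The difference was 1.74 ± 0.20 log2 units, or 3.34-fold (edgeR adjusted p = 4.86e-07). Leaving out 1 BPA or DMSO library at a time gave 1.53 to 1.86.

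SLC7A5, the leucine-exchanging partner of SLC3A2, measured 646, 531, 573 and 891 CPM in the DMSO libraries and 1414, 1407, 1498 and 1616 CPM in the BPA libraries. The BPA libraries lay close together (SD 97.4 CPM), and the DMSO group had 1 higher library, number 4. SLC7A5 rose by 1.17 ± 0.19 log2 units (2.25-fold, edgeR adjusted p = 4.51e-05). SLC7A11, the cystine-importing partner, measured 43.4, 47.2, 51.7 and 98.7 CPM with DMSO and 178, 203, 159 and 146 CPM with BPA. DMSO library 4 stood apart from the other DMSO libraries and was still below every BPA library. SLC7A11 rose by 1.51 ± 0.27 log2 units (2.84-fold, edgeR adjusted p = 0.000151), and by 1.85 without DMSO library 4.

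SLC7A1, the CAT1 carrier of arginine and lysine, measured 111, 101, 135 and 198 CPM with DMSO and 287, 339, 303 and 296 CPM with BPA. Its rise was 1.17 ± 0.21 log2 units (edgeR adjusted p = 0.000154). SLC1A5 (ASCT2), which exchanges glutamine and other neutral amino acids, measured 340.3, 329.5, 420.3 and 476 CPM with DMSO and 743, 774, 806 and 769 CPM with BPA. The BPA libraries of SLC1A5 varied less than its DMSO libraries, with SDs of 25.7 and 69.3 CPM. SLC1A5 rose by 0.98 ± 0.13 log2 units (edgeR adjusted p = 3.54e-06). SLC1A4 (ASCT1), which carries alanine, serine and cysteine, measured 86.2, 89.7, 89.9 and 126 CPM with DMSO and 177, 203, 181 and 176 CPM with BPA. It rose by 0.91 ± 0.16 log2 units (edgeR adjusted p = 8.70e-05).

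SLC38A1 and SLC38A2 both encode sodium-coupled carriers of glutamine and alanine, and only the first was called with BPA. SLC38A1 measured 127, 145, 175 and 169 CPM with DMSO and 301, 351, 329.6 and 251 CPM with BPA, and rose by 1.00 ± 0.14 log2 units (edgeR adjusted p = 6.75e-06). SLC38A2 measured 616, 669.5, 919.6 and 625 CPM with DMSO and 768, 636, 927 and 741 CPM with BPA, and the ranges of the groups overlapped. Its difference was 0.12 ± 0.21 log2 units, with a 95% interval of -0.31 to 0.55 (edgeR adjusted p = 0.697). With upper-quartile scaling it was -0.01, so its sign depended on the scaling. The difference between the 2 genes' changes was not tested. Their intervals (0.71 to 1.29 for SLC38A1) do not overlap. In DMSO, SLC38A2 was 1 of the 3 most abundant of the 10 mRNAs per kb. The others were SLC7A5 and SLC1A5, which both rose with BPA. The part of the DMSO level in the SLC38A2 result was not tested.

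SLC6A9 (GlyT1), which takes up glycine, a building block of glutathione, measured 16.9, 28.6, 43.0 and 33.5 CPM with DMSO and 56.5, 66.4, 62.3 and 64.2 CPM with BPA. The DMSO libraries spread widely, with library 1 the lowest, and none reached a BPA library. The rise was 1.03 ± 0.22 log2 units (edgeR adjusted p = 0.000883). SLC43A1 (LAT3), a carrier of branched-chain amino acids, measured 65.7, 86.7, 107 and 101 CPM with DMSO and 137, 145, 171 and 172 CPM with BPA. Its rise, 0.79 ± 0.14 log2 units, was the smallest of the 9 (edgeR adjusted p = 9.50e-05). All 9 genes stayed called in the same direction under all 15 alternatives to the processing, including the water libraries in place of DMSO.

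**Figure D2:**
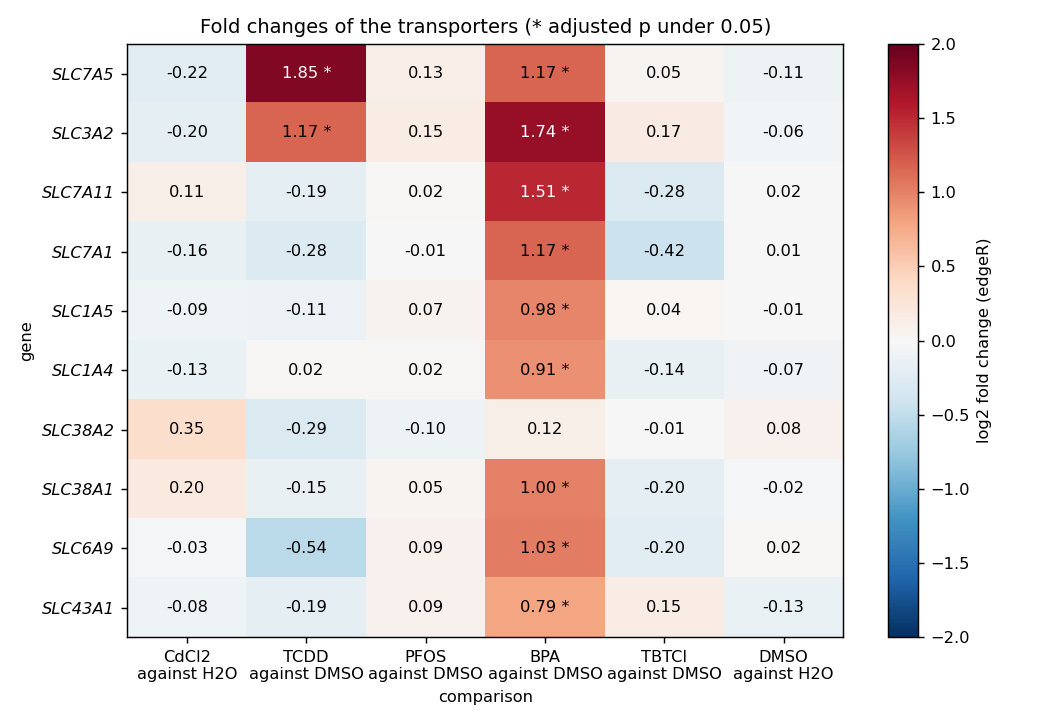
Log2 fold changes from edgeR (colour and printed value) of the 10 transporters (rows) in the 6 comparisons with a vehicle (columns). An asterisk marks an adjusted p under 0.05 over all tested genes: 9 with BPA, 2 with TCDD and 0 in the other columns. Columns that name DMSO share its 4 libraries.

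TCDD raised the LAT1 light chain SLC7A5 and its heavy chain SLC3A2, and none of the other 8 genes was called. SLC7A5 measured 2698, 2187, 1990.4 and 2629 CPM in TCDD libraries 1 to 4, beside 646, 531, 573 and 891 CPM with DMSO. Every TCDD library was above every other library of the series, BPA included. The rise was 1.85 ± 0.19 log2 units, or 3.60-fold (edgeR adjusted p = 1.05e-07). SLC3A2 measured 629.6, 457, 476 and 622 CPM with TCDD, beside 259.7, 214, 202 and 298 CPM with DMSO, and rose by 1.17 ± 0.20 log2 units, or 2.24-fold (edgeR adjusted p = 0.000171). All TCDD libraries of SLC3A2 were above all DMSO libraries. Among all tested genes 9.25% were called with TCDD, 6.45% as higher, and 9.38% had every TCDD library above every DMSO library. The median over the 10 transporters was -0.17, beside -0.01 over all tested genes. Both genes were called under all 15 alternatives. At the marker level, summed hepatocyte markers were 38559 to 58036 CPM with TCDD, and the 14 markers of other cell types summed to 1590.0 to 3139 CPM. None of the 16 tested markers of either list was called by edgeR, with 1 of 10 hepatocyte markers and 4 of 6 others at an unadjusted p under 0.05 and medians of -0.30 and -0.15 log2 units. Their part in the result was not tested.

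SLC7A11, the other light chain, was not called with TCDD. It measured 37.4, 33.1, 55.9 and 85.7 CPM with TCDD, and its difference from DMSO was -0.19 ± 0.27 log2 units, with a 95% interval of -0.74 to 0.36 (edgeR adjusted p = 0.760). SLC6A9 had the lowest TCDD value of the uncalled genes relative to DMSO: its TCDD libraries measured 17.1, 20.2, 18.0 and 28.7 CPM, a difference of -0.54 ± 0.22 log2 units (edgeR adjusted p = 0.145). Without DMSO library 1, the low one, that difference was -0.75 (edgeR adjusted p = 0.0216), and without TCDD library 4 it was -0.74 (edgeR adjusted p = 0.0464), so single libraries decided this call. For the remaining 6 genes the log2 differences ran from -0.29 for SLC38A2 to 0.02 for SLC1A4, and their ranges overlapped those of DMSO.

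The balance of SLC7A5 and its heavy chain SLC3A2 was described as a ratio within each library. Per kb of exon, SLC7A5 was 2.95 ± 0.276 times SLC3A2 in DMSO libraries (range 2.71 to 3.26). In the TCDD libraries 1 to 4 the ratio was 4.68, 5.22, 4.57 and 4.61. In the BPA libraries it was 1.89, 1.34, 2.41 and 2.85. All TCDD ratios were above every other library of the series, and BPA library 4 was within the DMSO range. Outside these groups the ratio lay between 2.71 and 3.4, except in TBTCl library 4, where it was 1.72. The ratio of SLC7A5 to SLC7A11 per kb had a mean of 23.5 (range 18.3 to 30.2) with DMSO and 104 (range 62.3 to 147) with TCDD. These ratios are descriptions of 4 libraries each and carry no test.

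Whether reads of a gene and of an overlapping gene on the other strand were counted apart is not known. The libraries were directional, but no source used here names the strand setting of the counting. SLC7A5 overlaps the antisense gene ENSG00000260466, which measured 2.33, 2.96, 6.31 and 3.63 CPM with TCDD and 2.41, 1.49, 0.668 and 1.51 CPM with DMSO, far under SLC7A5 itself. SLC6A9 overlaps CCDC24 on the opposite strand (2.61 to 6.37 CPM over the 28 libraries). The pseudogenes SLC7A5P1 and SLC7A5P2 had 0 counts in every library, and how reads matching both were treated is not known.

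**Figure D3:**
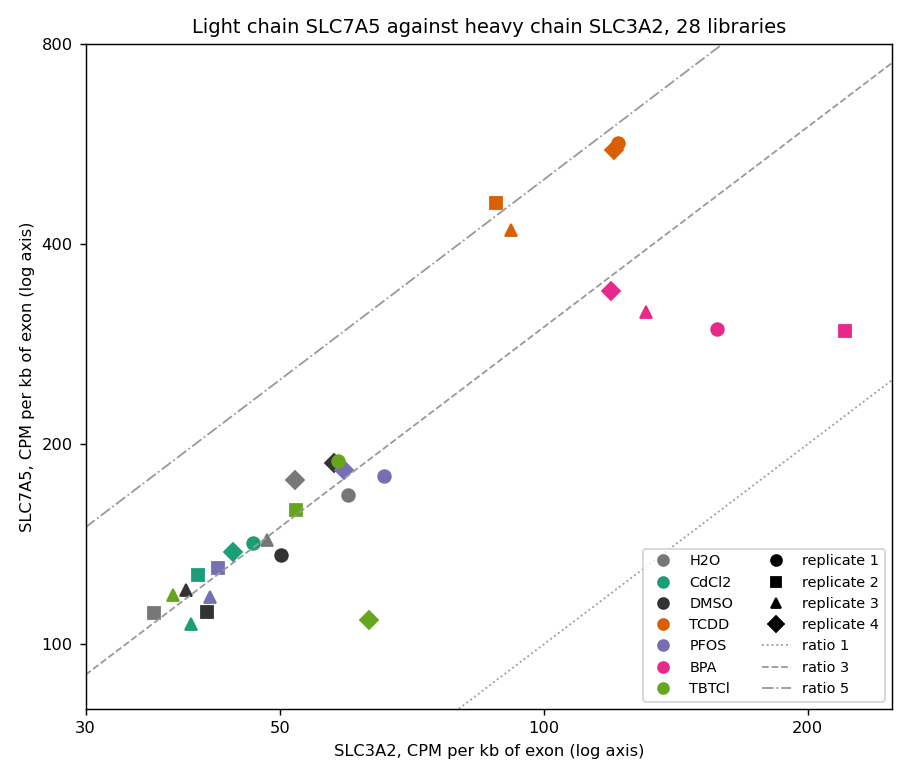
SLC7A5 (y axis) against SLC3A2 (x axis) in CPM per kb of exon, both on log axes, 1 point per library with colour for the group and shape for the replicate number. Diagonal lines mark SLC7A5 to SLC3A2 ratios of 1, 3 and 5. The 4 TCDD libraries sit near the line for 5, the 4 BPA libraries between the lines for 1 and 3, and the other libraries near the line for 3 apart from TBTCl replicate 4.

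Tested directly against each other, BPA and TCDD differed in 9 of the 10 mRNAs: 8 were higher with BPA and SLC7A5 was lower. Over all tested genes 38.3% were called between these groups, 17.8% higher and 20.4% lower with BPA. SLC7A5 was 1.60-fold lower with BPA than with TCDD (-0.68 ± 0.19 log2 units, edgeR adjusted p = 0.00602), and no BPA library reached a TCDD library. SLC7A11 was 1.69 ± 0.27 log2 units higher with BPA (edgeR adjusted p = 2.82e-05), SLC6A9 1.57 ± 0.23 (edgeR adjusted p = 5.44e-06) and SLC7A1 1.45 ± 0.21 (edgeR adjusted p = 8.22e-06). The other 4 called genes with no overlap between groups, SLC1A5, SLC1A4, SLC38A1 and SLC43A1, were 0.89 to 1.15 log2 units higher, and 40.2% of all tested genes had no overlap. SLC3A2 was 0.58 ± 0.20 log2 units higher with BPA (edgeR adjusted p = 0.0236), with overlapping libraries. This call did not hold without BPA library 2, the highest (0.37, edgeR adjusted p = 0.155), without TCDD library 2 or 3 (edgeR adjusted p = 0.0763 and 0.0710), with upper-quartile scaling (0.46, edgeR adjusted p = 0.0640) or with library size alone (edgeR adjusted p = 0.0634). SLC38A2 differed by 0.40 ± 0.21 log2 units and was not called (edgeR adjusted p = 0.130).

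None of the 10 transporters was called with CdCl2, PFOS, TBTCl or between the vehicles. With CdCl2 against H2O the log2 differences ran from -0.22 for SLC7A5 to 0.35 for SLC38A2. With PFOS against DMSO they ran from -0.10 for SLC38A2 to 0.15 for SLC3A2, and with TBTCl against DMSO from -0.42 for SLC7A1 to 0.17 for SLC3A2. DMSO against H2O gave -0.13 for SLC43A1 to 0.08 for SLC38A2. Few genes of any kind were called in these comparisons: 0.0212% with CdCl2, 0.0159% with PFOS, 0.143% with TBTCl and 0.0% between the vehicles. These shares moved with the processing: the 27 genes called with TBTCl were 160 without TBTCl library 2, 9 without TBTCl library 4 and 252 by DESeq2, and the 3 called with PFOS were 127 by DESeq2. In each of the 4 comparisons, 0 of the 10 genes had an unadjusted edgeR p under 0.05, DESeq2 called 0, and the libraries of the groups overlapped for all 10. Of all tested genes, 2.45%, 4.94%, 4.87% and 1.72% had groups that did not overlap with CdCl2, PFOS, TBTCl and between the vehicles. The 95% intervals of the differences over the 10 genes reached at most 0.78 with CdCl2, 0.57 with PFOS and 0.58 with TBTCl, and down to -0.61, -0.53 and -0.86 log2 units.

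The 2 furthest values were SLC38A2 with CdCl2 and SLC7A1 with TBTCl. SLC38A2 measured 545, 773, 636 and 724 CPM with H2O and 788, 765, 1000.4 and 861 CPM with CdCl2, a difference of 0.35 ± 0.21 log2 units (edgeR adjusted p = 0.898). The groups overlapped because H2O library 2 was above CdCl2 library 2. SLC7A1 measured 117, 99.6, 117 and 72.4 CPM with TBTCl, a difference from DMSO of -0.42 ± 0.21 log2 units (edgeR adjusted p = 0.332). TBTCl library 4 was the lowest there, and it was also the lowest TBTCl library for SLC7A5, SLC1A4, SLC38A1 and SLC6A9. That library had the lowest TMM factor of the series (0.861). Over all tested genes its counts differed from the other TBTCl libraries by a chi-square per gene of 185 to 292. Other pairs of libraries within a group reached at most 159. Without TBTCl library 4 the SLC7A1 difference was -0.29 log2 units, and without DMSO library 4, the highest of that group, it was -0.18. Over the libraries without TCDD or BPA the ranges were 509 to 897 CPM for SLC7A5, 186 to 340.4 CPM for SLC3A2 and 38.0 to 98.7 CPM for SLC7A11.

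Compounds given in the same vehicle were also compared with each other. Against PFOS, BPA libraries were higher for 9 of 10 transporters (30.6% of all tested genes called, 15.3% higher), and against TBTCl likewise for 9 (34.8% called, 16.7% higher). SLC38A2 was the gene not called in either, at 0.22 and 0.13 log2 units. TCDD was higher than PFOS for SLC7A5 (1.71 ± 0.19) and SLC3A2 (1.01 ± 0.20), with 13.0% of all genes called and 8.29% higher. It was also higher than TBTCl for SLC7A5 (1.80 ± 0.19) and SLC3A2 (1.00 ± 0.20), with 12.8% called and 7.26% higher. SLC6A9 was -0.62 ± 0.22 log2 units in TCDD relative to PFOS (edgeR adjusted p = 0.0640) and was called by DESeq2 (-0.63, adjusted p = 0.0413). None of the 10 was called between TBTCl and PFOS (0 genes by edgeR and by DESeq2, 0 at an unadjusted p under 0.05, against 0.249% of all tested genes by edgeR). SLC7A1 was the 1 gene of the 10 whose groups did not overlap there, at 72.4 to 117 CPM with TBTCl and 119 to 167 CPM with PFOS (-0.41 ± 0.21 log2 units, edgeR adjusted p = 0.391), and 4.27% of all tested genes had no overlap. CdCl2 has another vehicle, so only the difference of changes was tested: the change with BPA exceeded that with CdCl2 for 9 of the 10 genes (16.5% of all genes called, 8.7% higher), from 0.80 ± 0.20 log2 units for SLC38A1 to 1.94 ± 0.28 for SLC3A2. For SLC38A2 the difference of changes was -0.23 ± 0.30 (edgeR adjusted p = 0.634).

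Libraries of the same number showed common deviations for several transporters. SLC7A11 and SLC1A5 were highest in library 4 of 6 of the 7 groups, the exception being BPA, where library 4 was the lowest for SLC7A11. SLC38A2 was highest in library 3 of 6 groups, all but H2O. SLC6A9 was lowest in library 1 of 6 groups, all but TBTCl, and SLC43A1 in library 1 of 6 groups, all but TCDD. Set beside the DMSO library of the same number, each of the 4 BPA libraries was higher for all 9 called genes, and the ratio was smallest in number 4 for SLC7A5, SLC3A2, SLC7A11, SLC7A1, SLC1A5, SLC1A4 and SLC38A1. For SLC7A11 the same-number log2 ratios were 2.03, 2.10, 1.62 and 0.56, and for SLC3A2 they were 1.65, 2.42, 1.75 and 1.05. With TCDD the SLC7A5 ratios were 2.06, 2.04, 1.80 and 1.56. Whether equal numbers stand for 1 shared experiment is not in the labels.

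**Figure D4:**
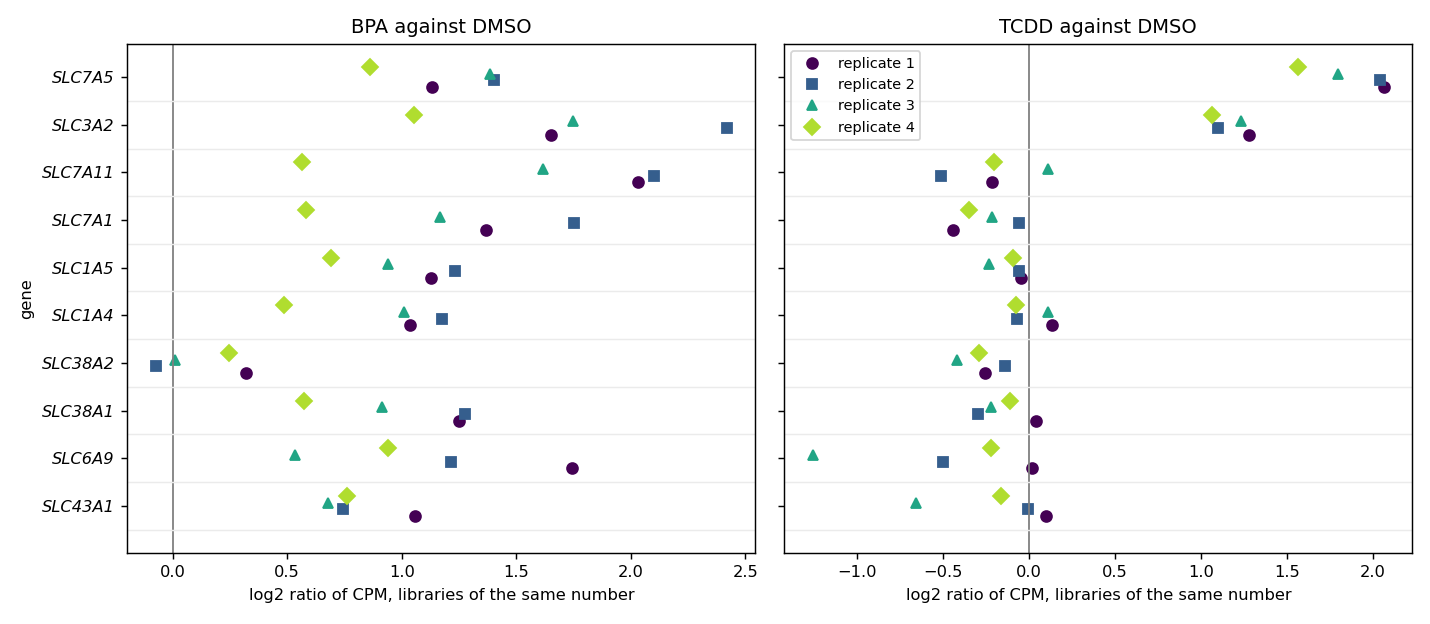
Log2 ratio of CPM between each BPA library (left) or TCDD library (right) and the DMSO library of the same number (x axis), for the 10 transporters (y axis), with a marker per replicate number. All 4 BPA ratios of each of the 9 called genes are above 0, and with TCDD only SLC7A5 and SLC3A2 have all 4 ratios above 0.

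Other amino acid transporters of the plasma membrane showed calls in both directions. Of 31 other family members, 18 were tested, and the 13 others were near or at 0 in DMSO cells (0.244 CPM at most). With BPA, 2 of the 18 rose and 5 fell, a share near the 35.0% called over all tested genes. SLC38A3, the SNAT3 glutamine carrier of hepatocytes, rose from 119.8 ± 22.8 CPM in DMSO to 256 ± 32.1 CPM in BPA (log2 1.10, edgeR adjusted p = 6.10e-06), and the taurine carrier SLC6A6 rose by 0.66 log2 units (edgeR adjusted p = 0.0268). SLC6A14, a broad neutral and cationic carrier, stood at 17.5 ± 5.80 CPM in DMSO and 2.10 ± 1.69 CPM in BPA (log2 -3.07, edgeR adjusted p = 4.51e-05). The aromatic amino acid carrier SLC16A10 (log2 -1.38), the light chain SLC7A6 (log2 -0.63), SLC7A10, at 0.442 CPM in DMSO (log2 -1.89), and SLC38A4 also fell. The calls of SLC6A6, SLC7A6 and SLC7A10 were each lost when single libraries were left out, and that of SLC6A6 also under 2 other scalings. The count of 7 was 4 without BPA library 1 and 3 without BPA library 2.

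With TCDD, 6 of the same 18 rose and 1 fell, where 9.25% of all tested genes were called and 6.45% were higher. SLC6A19, the B0AT1 carrier of neutral amino acids in gut and kidney, stood at 0.0896 ± 0.0250 CPM in DMSO and 5.02 ± 1.14 CPM in TCDD (log2 5.75, edgeR adjusted p = 8.85e-10). Its relative SLC6A18 had at most 1 count in a DMSO library and 0.451 ± 0.0587 CPM with TCDD. SLC38A5 rose by 1.07 and the LAT4 carrier SLC43A2 by 1.37 log2 units (edgeR adjusted p = 0.00120 and 0.00138), and SLC6A6 and SLC16A10 were the other 2 that rose. SLC38A3, higher with BPA, was lower with TCDD, at 119.8 ± 22.8 CPM in DMSO and 75.3 ± 7.49 CPM in TCDD (log2 -0.67, edgeR adjusted p = 0.00386). The BPA and TCDD comparisons share their DMSO libraries.

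Of 34 listed genes of ATF4 and the amino acid response, all tested, 28 rose with BPA and 1 fell. Of all tested genes, 35.0% were called with BPA and 17.3% were higher. ATF4 mRNA stood at 473 ± 89.7 CPM in DMSO and 824 ± 79.4 CPM in BPA (log2 0.80, edgeR adjusted p = 0.00171). DDIT3, the CHOP factor of stress-induced death, rose by 2.20, TRIB3, a pseudokinase that restrains ATF4, by 1.68, ASNS, asparagine synthetase, by 1.60 and the secreted stress factor GDF15 by 2.75 log2 units, each called by edgeR (adjusted p = 3.23e-08, 3.27e-06, 0.000149 and 8.55e-11). The seryl-tRNA synthetase SARS1 rose by 1.28. EIF2AK4, the GCN2 kinase that senses uncharged tRNA, fell by 0.79 log2 units. The list's median was 1.11, beside -0.02 over all tested genes. With TCDD 5 of the 34 rose, among them PPP1R15A, NUPR1, GDF15 and ATF3, and 2 serine synthesis genes, PSPH and PSAT1, fell (calls lost under 1 and 4 alternatives), while ATF4 differed by 0.08, DDIT3 by -0.13, ASNS by -0.43 and TRIB3 by -0.40 log2 units without a call (edgeR adjusted p = 0.868, 0.788, 0.455 and 0.304). Of all tested genes, 9.25% were called with TCDD and 6.45% were higher. With the replicate number as a block, 6 of the 34 rose and 6 fell with TCDD.

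Of 23 tested genes of NRF2 and of cystine and glutathione metabolism, 18 rose with BPA and 8 with TCDD, and none fell. The other 5 and 15 were not called, and the medians were 0.84 and 0.26 log2 units. Of all tested genes, 17.3% were higher with BPA and 6.45% with TCDD. GCLM, the modifier subunit of glutamate-cysteine ligase, stood at 21.2 ± 1.48 CPM in DMSO and 97.5 ± 38.9 CPM in BPA (log2 2.20, edgeR adjusted p = 9.41e-09), and at 49.9 ± 9.89 CPM with TCDD (log2 1.23, edgeR adjusted p = 5.10e-05). NQO1, a quinone reductase, rose by 1.67 log2 units with BPA and by 2.15 with TCDD (edgeR adjusted p = 0.000438 and 5.81e-05). GCLC, the catalytic subunit, rose by 2.55 with BPA, and haem oxygenase HMOX1 by 1.63 with TCDD. The NRF2 mRNA itself, NFE2L2, differed by 0.35 with BPA (edgeR adjusted p = 0.00766, a call lost with upper-quartile scaling, library size alone or no low-count filter) and rose by 0.74 with TCDD (edgeR adjusted p = 4.47e-06). SLC7A11, the cystine carrier of this pathway, was called with BPA and not with TCDD, and between the compounds it differed by 1.69 log2 units.

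Of the lysosomal amino acid transporters and the sensing genes upstream of mTORC1, a kinase complex that reads amino acid supply, 10 of 28 tested rose with BPA and 3 fell, where 35.0% of all tested genes were called and 17.3% were higher. The lysosomal carriers SLC66A1, CTNS and SLC38A7 rose by 1.16, 1.15 and 0.87 log2 units, and the leucine sensor SESN2 by 0.95. Its relatives SESN1 and SESN3 fell by 1.06 and 1.94, and the GTPase RRAGA by 0.52 log2 units. With TCDD only SESN1 of the 28 was called, at -0.63 log2 units (edgeR adjusted p = 0.00702), with 2 of the 28 at an unadjusted p under 0.05. Of all tested genes, 9.25% were called with TCDD. In the comparisons with CdCl2, PFOS, TBTCl and the vehicles, edgeR called 0 genes of all 4 lists, with 0 to 5 genes of a list at an unadjusted p under 0.05.

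**Figure D5:**
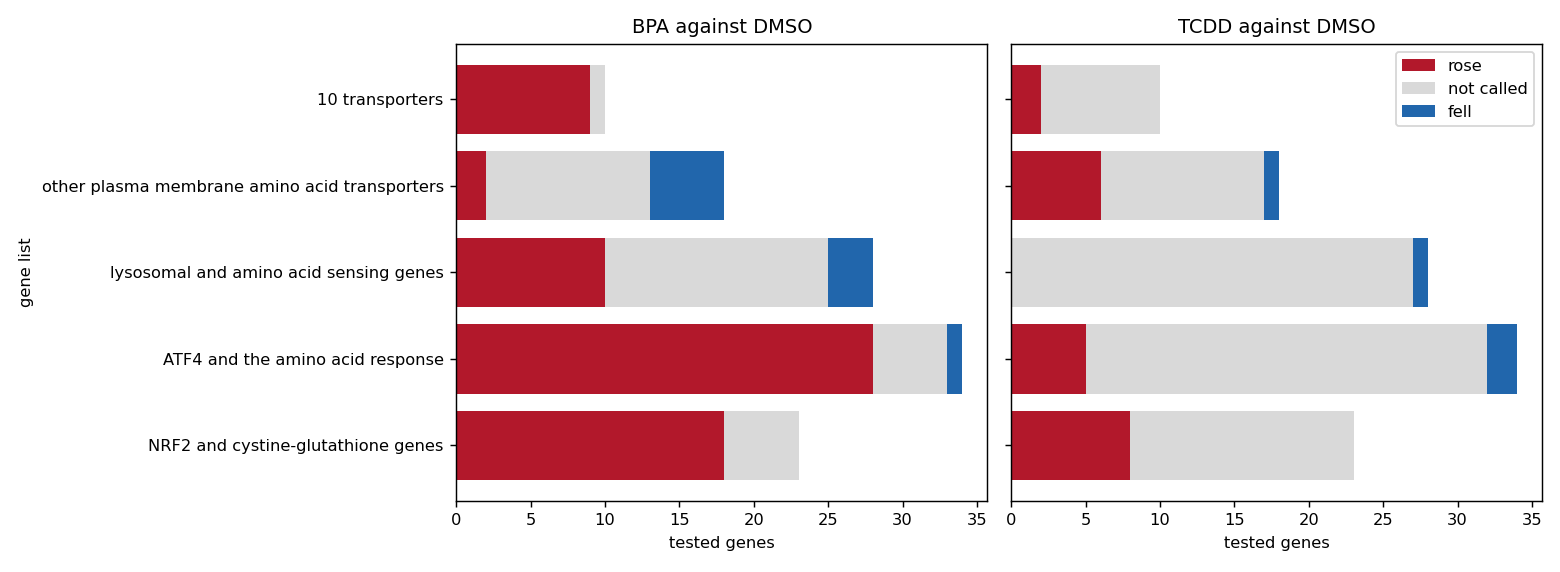
Number of tested genes (x axis) that rose, fell or were not called against DMSO with BPA (left) and TCDD (right), for the 10 transporters and 4 related gene lists (y axis). The transporters (9 of 10) and the ATF4 list (28 of 34) were mostly higher with BPA, and the other plasma membrane transporters were not (2 of 18 higher, 5 lower).

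Across the 28 libraries, which share groups, replicate numbers and scaling, the 45 pairs of the 10 genes had Pearson correlations of log2 CPM from -0.40 to 0.93, with a median of 0.68. The closest pair was SLC7A11 and SLC7A1, and pairs with SLC38A2 reached 0.45 at most. Each gene was also set beside all tested genes with a symbol. Nearest to SLC7A5 were PC, NR3C1 and CCNJL (r = 0.938 to 0.956), and nearest to SLC3A2 were TIMP2, FAM241A and SMOX (r = 0.940 to 0.954). For SLC7A11 they were GARS1, MTHFD1L and BCAT1 (r = 0.926 to 0.948), for SLC7A1 DNAJC16, AARS1 and AKNA (r = 0.947 to 0.953), for SLC1A5 MTHFD1L, MARS1 and TRIM44 (r = 0.952 to 0.953) and for SLC1A4 WARS1, LHFPL2 and ZNF664 (r = 0.940 to 0.949). SLC38A1 was nearest to RHBDD1, JMY and HCG18 (r = 0.946 to 0.964), SLC6A9 to ALDH1L2, ADM2 and MYOM3 (r = 0.900 to 0.907) and SLC43A1 to SHMT2, PCK2 and SLC38A3 (r = 0.922 to 0.940). SLC38A2 had the weakest neighbours, ZBTB44, MBNL2 and MTMR7 (r = 0.855 to 0.880). GARS1, AARS1, MARS1 and WARS1 are aminoacyl-tRNA synthetases, and MTHFD1L, ALDH1L2 and SHMT2 are mitochondrial enzymes of folate metabolism. Such values follow the group differences and carry no test.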

How the data were processed

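Poly(A) RNA of 28 HepG2 libraries (7 groups of 4) was sequenced from directional libraries, per the labels' protocols. The authors deposited raw read counts per gene. The submitters' processing notes name fastp, STAR, HTSeq, DESeq2 and GRCh38. Not given in the sources used here: tool versions, annotation release and counting strand.

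The last of 63140 identifiers was left out as incomplete (no line break follows it). Symbols were at hand for 62541 identifiers and GENCODE release 29 entries for 58126. After filterByExpr (minimum count 10), 18849 genes with 99.96% of the counts remained. They were fitted in R 4.3.3 by edgeR 4.0.16 (quasi-likelihood test, TMM factors) as 7 group means with 21 residual degrees of freedom. A gene was called when its p, adjusted by Benjamini-Hochberg over all tested genes, was under 0.05. The SE is the size of the log2 fold change divided by the square root of the F statistic. The procedure was tested on simulated data.

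Alternatives were DESeq2 1.42.0, upper-quartile or no scaling factors, no low-count filter, the compared groups alone, the replicate block, water in place of DMSO and each library left out. The members, lists, motifs and naming rule were chosen with earlier results of these data known. The rule named all 10 members, up to 4 called genes per list and direction with the smallest p, a fixed set of stress genes, and the 3 genes most like each member. SLC38A4, ATF3 and the TCDD calls of SLC6A6 and SLC16A10 were named after their values were seen, to complete counts. Libraries of a group differed by more than counting error. Same-numbered libraries were checked for pairing by the correlation of their deviations from group means. It was 0.12 to 0.63 in 5 of the 6 comparisons with or between vehicles, and -0.21 to 0.44 for TCDD and DMSO. The main fit took no numbers as pairs in any comparison, and the replicate block was run as an alternative.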

Additional observations from a re-analysis of the deposited data

Results flagged for a closer look

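Of 70 sets of 4 libraries (10 transporters in 7 groups), 2 held a library whose gap to the nearest other, as a share of the range, passed the 95% critical value of Dixon's test, which chance passes in about 1 in 20 sets. Both were DMSO replicate 4. SLC7A11 measured 98.7 CPM there and 43.4 to 51.7 CPM in the other DMSO libraries, a gap of 0.85 of the range. SLC1A4 measured 126 CPM there and 86.2 to 89.9 CPM in the others, a gap of 0.908 of the range. Without that library the log2 difference between BPA and DMSO was 1.85 for SLC7A11 (1.51 with it) and 1.06 for SLC1A4 (0.91 with it), both called by edgeR.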

How the results depend on the processing

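The number of transporters called was within 1.5 times the reported number in the 13 comparisons under all alternatives run, except that TCDD against PFOS gave 4 calls instead of 2 with the replicate block, the added ones being SLC6A9 and SLC43A1, both lower. Leaving out 1 library gave 9 calls for BPA against DMSO, PFOS and TBTCl and for the change with BPA less that with CdCl2, 8 to 9 for BPA against TCDD, 2 to 3 for TCDD against DMSO and PFOS, 2 for TCDD against TBTCl and 0 elsewhere. The replicate block changed no call of a transporter against its vehicle, and added SLC38A2 for BPA against TCDD (log2 0.41, edgeR adjusted p = 0.0295) and SLC43A1 for TCDD against TBTCl (log2 -0.34, edgeR adjusted p = 0.0186). Upper-quartile factors moved the median of all genes for BPA against DMSO to -0.15 and library size alone to -0.14 (TMM: -0.02), giving 2239 genes higher and 4345 lower, or 2169 and 4321, instead of 3268 and 3320. For BPA against TCDD these were 2434 and 4859, or 2582 and 4494, instead of 3364 and 3854. For the change with BPA less that with CdCl2 they were 1071 and 2069, or 969 and 2169, instead of 1640 and 1473. Relative to the shifted median, the 9 transporters called with BPA were 0.81 to 1.77 log2 units higher under both scalings, and SLC38A2 0.14. Each transporter had at least 515 counts in every library, and the common biological CV over all tested genes was 22.0%. Over all tested genes, the count called went from 4 to between 0 and 28 with CdCl2, from 3 to between 0 and 127 with PFOS, from 0 to at most 1 between the vehicles, from 27 to between 1 and 252 with TBTCl and from 47 to between 0 and 290 for TBTCl against PFOS. With TBTCl, leaving out any 1 DMSO library gave 5 to 7 calls and leaving out TBTCl replicate 1 gave 55. The replicate block gave 2722 instead of 1743 for TCDD against DMSO, 3745 instead of 2450 for TCDD against PFOS and 4832 instead of 3113 for the change with BPA less that with CdCl2. Without TCDD replicate 2, TCDD against PFOS gave 1617. The compared groups alone gave 919 instead of 2420 for TCDD against TBTCl and 3460 instead of 6564 for BPA against TBTCl.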

Other observations

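After group means were removed from log2 CPM, the transporters still varied in blocs over the 28 libraries, which share replicate numbers and scaling. Pearson correlations were 0.84 between SLC7A5 and SLC1A4, 0.77 between SLC7A11 and SLC1A5 and 0.75 between SLC7A11 and SLC7A1. SLC38A2 had the lowest values, at -0.77 with SLC3A2, -0.65 with SLC7A5 and -0.60 with SLC1A4. These are descriptions chosen after the values were seen.

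CYP1A1, used as the label check for TCDD, lay between 53.5 and 462 CPM with BPA and between 2.82 and 16.9 CPM with DMSO, so every BPA library was above every DMSO library. The antisense gene ENSG00000260466, which overlaps SLC7A5, was at most 0.988 CPM in every library outside the TCDD and DMSO groups.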
